A study of Mus musculus with 2 samples.

Results

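CXC chemokines are small secreted proteins that attract leukocytes, and 7 genes of this system were followed through single-cell transcriptomes of the mouse colon lamina propria. They were found by their symbols among the 31053 features of both libraries, and all 7 were present. Cxcl1, Cxcl2 and Cxcl3 encode ligands of CXCR2 and are termed the neutrophil attractants here. Cxcr2 encodes that receptor. Cxcl9 and Cxcl10 encode ligands of CXCR3, a receptor of activated T cells and NK cells, and Cxcl16 encodes a membrane-anchored ligand of CXCR6 that can be released by proteases. Transcription of the neutrophil attractants is known to follow NF-kappaB signals such as tumour necrosis factor and interleukin 1. Cxcl9 is a classical interferon gamma target, whereas Cxcl10 responds to interferons of several types and also to NF-kappaB. In the gut these ligands guide neutrophils and lymphocytes from blood into the mucosa.

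The data comprised 1 library from wild-type (WT) mice and 1 library from LncRNA17Rik knockout (KO) mice, in which a long non-coding RNA that the study calls lncLy6c was removed by CRISPR-Cas9 cuts upstream of its first and downstream of its second exon on a C57BL/6J background. The study describes pooled male mice of the same age for the single-cell samples and mentions no treatment of them, and the knockout, made by zygote injection, is not restricted to a cell type. A Percoll gradient and sorting without 7-AAD positive dead cells yielded the cells, labelled cd11b+, and 10x Genomics 3' chemistry tagged each captured RNA with a unique molecular identifier (UMI). With 1 library per genotype, a difference has no replicate check, no test between genotypes was possible, and every interval below is a 95% interval that covers counting error only. Genotype, pool, sort and library cannot be told apart.

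There were 3185 barcodes with 22191774 UMIs in the WT library and 3020 with 23384895 in the KO library, of which 1 barcode was shared. After filtering, 2597 WT and 2514 KO cells remained, with a median of 5073 and 6564.5 UMIs per cell. Cells were clustered without the 7 genes and their listed partners, and clusters were named from marker genes, which gave 312 WT and 130 KO resident macrophage-like cells, 438 and 359 inflammatory monocyte-like cells, 79 and 264 neutrophil-like cells, 224 and 409 eosinophil-like cells, 201 and 350 cDC1-like cells and 152 and 433 cDC2-like cells, the last pair being the classical dendritic cell subsets. The eosinophil-like cluster expressed Siglecf, Ccr3 and Alox15 but also Retnlg, Mmp9, G0s2 and Hdc of the neutrophil list, and its cells were shallow, with a median of 795 UMIs (WT) and 971 UMIs (KO). A cluster of 27 WT and 164 KO cells led by Retnla, Lpl and Ccl24 expressed markers of macrophages and of monocytes, stayed without a name and is called the Retnla Lpl Ccl24 cluster. The label cd11b+ did not describe all cells. Itgam, which encodes CD11b, was at 255 and 166 UMIs per 1000000 UMIs (CPM) in WT and KO resident macrophage-like cells and at 36.8 and 20.3 CPM in T cell-like cells, and B cell-like, T cell-like, plasma cell-like, epithelial-like and fibroblast-like cells were present in both libraries.

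All ligand genes other than Cxcl16 lie on chromosome 5 (GRCm38). Cxcl3 (90786103 to 90789600), Cxcl1 (90891241 to 90893115) and Cxcl2 (90903871 to 90905938) follow each other on the plus strand, and Cxcl9 (92321347 to 92328079) and Cxcl10 (92346638 to 92348889) lie on the minus strand. Cxcl16 is on the minus strand of chromosome 11 (70453983 to 70459984) and Cxcr2 on the plus strand of chromosome 1 (74153989 to 74161246). All 7 genes are annotated as protein coding. Cxcl10 overlaps Art3 and Cxcl16 overlaps Zmynd15, each on the opposite strand.

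RefSeq promoters (GRCm38.p6) were found for 6 of the 7 genes, Cxcl16 being the one without an entry. The stretch GGGAATTTCC, the form of the NF-kappaB motif that was chosen because the promoters of all 3 attractants share it, was searched on both strands in the 250 bases before the start and was present in 28 of 32851 promoters (0.0852%), among them those of Cxcl1, Cxcl2 and Cxcl3. The core of the interferon-stimulated response element, GAAA followed after any 2 bases by another GAAA, was searched on both strands and was present in 2.98% of promoters, including that of Cxcl10. The windows of 85 bases around these matches are shown because the attractants share the former and Cxcl10 holds the latter. They run 5′ to 3′ on the strand of the gene, with the match in capitals, and a match describes letters and not a bound factor.
Cxcl1, chr5:90891149-90891233, plus strand: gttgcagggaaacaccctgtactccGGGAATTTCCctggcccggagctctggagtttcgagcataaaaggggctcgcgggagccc
Cxcl2, chr5:90903777-90903861, plus strand: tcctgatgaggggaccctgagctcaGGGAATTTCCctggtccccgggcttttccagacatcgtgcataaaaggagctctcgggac
Cxcl3, chr5:90786003-90786087, plus strand: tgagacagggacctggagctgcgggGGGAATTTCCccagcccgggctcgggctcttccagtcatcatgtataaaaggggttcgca
Cxcl10, chr5:92349043-92349127, minus strand: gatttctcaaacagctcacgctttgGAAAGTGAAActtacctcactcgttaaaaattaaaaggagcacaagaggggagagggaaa
The match began 71 bases before the start in Cxcl1, 97 in Cxcl2, 73 in Cxcl3 and 213 in Cxcl10. Neither of these letter patterns was in the same window of Cxcl9 or Cxcr2. The promoter of Cxcl10 also held the looser NF-kappaB motif, which occurs in 7.25% of promoters, as GGGAAATTCC 159 bases and GGGGACTTCC 104 bases before the start.

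To learn which colon cells carry these transcripts, UMIs were summed per class and library. Cxcl2 was the most abundant of the 7 in both libraries, and neutrophil-like cells held its highest level, 23087 CPM in WT (interval 22428 to 23761) and 29383 CPM in KO (29022 to 29747). The Retnla Lpl Ccl24 cluster (9064 and 16113 CPM), resident macrophage-like cells (6124 and 20028 CPM), inflammatory monocyte-like cells (5212 and 12244 CPM) and eosinophil-like cells (3954 and 4268 CPM) followed, and in KO the resident macrophage-like cells stood above the Retnla Lpl Ccl24 cluster. The dendritic subsets were lower, with 1002 and 1350 CPM in cDC2-like and 337 and 548 CPM in cDC1-like cells. The counting intervals of these 7 groups did not overlap within either library, so neighbours in this order differed beyond counting error.

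Cxcl1 was highest in mononuclear phagocytes, although neutrophil-like cells also held it. Its level was 1379 CPM in WT against 1900 CPM in KO in the Retnla Lpl Ccl24 cluster, 547 and 2046 CPM in resident macrophage-like cells and 381 and 1137 CPM in inflammatory monocyte-like cells. Mature DC-like cells had 269 and 710 CPM, from 3 of 19 WT and 12 of 42 KO cells. Neutrophil-like cells had 552 and 578 CPM. In WT the interval of neutrophil-like cells (454 to 665 CPM) overlapped that of resident macrophage-like cells (514 to 581 CPM), so these neighbours did not differ beyond counting error, whereas in KO resident macrophage-like cells were above neutrophil-like cells.

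By level, Cxcl3 had a different order. Eosinophil-like cells had the highest level of all groups in both libraries, 974 CPM in WT against 657 CPM in KO, and held 34.8% of all Cxcl3 UMIs in WT and 10.4% in KO while holding 1.43% and 2.07% of all UMIs. By number of UMIs, resident macrophage-like cells held nearly as many in WT (32.1%), and inflammatory monocyte-like cells (34.5%) and the Retnla Lpl Ccl24 cluster (23.6%) held more in KO. Neutrophil-like cells followed in WT (184 CPM), with resident macrophage-like (127 CPM), Retnla Lpl Ccl24 (67.0 CPM) and inflammatory monocyte-like cells (32.1 CPM) below them. The WT interval of resident macrophage-like cells (111.7 to 144 CPM) overlapped those of neutrophil-like (130 to 254 CPM) and Retnla Lpl Ccl24 cells (36.7 to 112.5 CPM). In KO the Retnla Lpl Ccl24 cluster reached 391 CPM, and inflammatory monocyte-like (320 CPM) and neutrophil-like cells (309 CPM) had overlapping intervals.

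Cxcr2, the receptor of these ligands, was a transcript of neutrophil-like cells. They had 592 CPM in WT (interval 491 to 709) and 579 CPM in KO (529 to 632) and held 68.4% and 90.2% of all Cxcr2 UMIs. B cell-like cells of the WT library had 21.3 CPM, from 4 cells, and eosinophil-like cells had 3.69 CPM in WT against 6.50 CPM in KO, from 1 and 3 UMIs. The KO to WT log2 ratio in neutrophil-like cells was -0.03 (interval -0.32 to 0.27). The summed level over all cells was 9.16 CPM in WT against 24.7 CPM in KO, and neutrophil-like cells made up 3.04% of WT and 10.5% of KO cells. The related receptor gene Cxcr1 had no UMI in WT and 3 UMIs in KO.

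**Figure D1:**
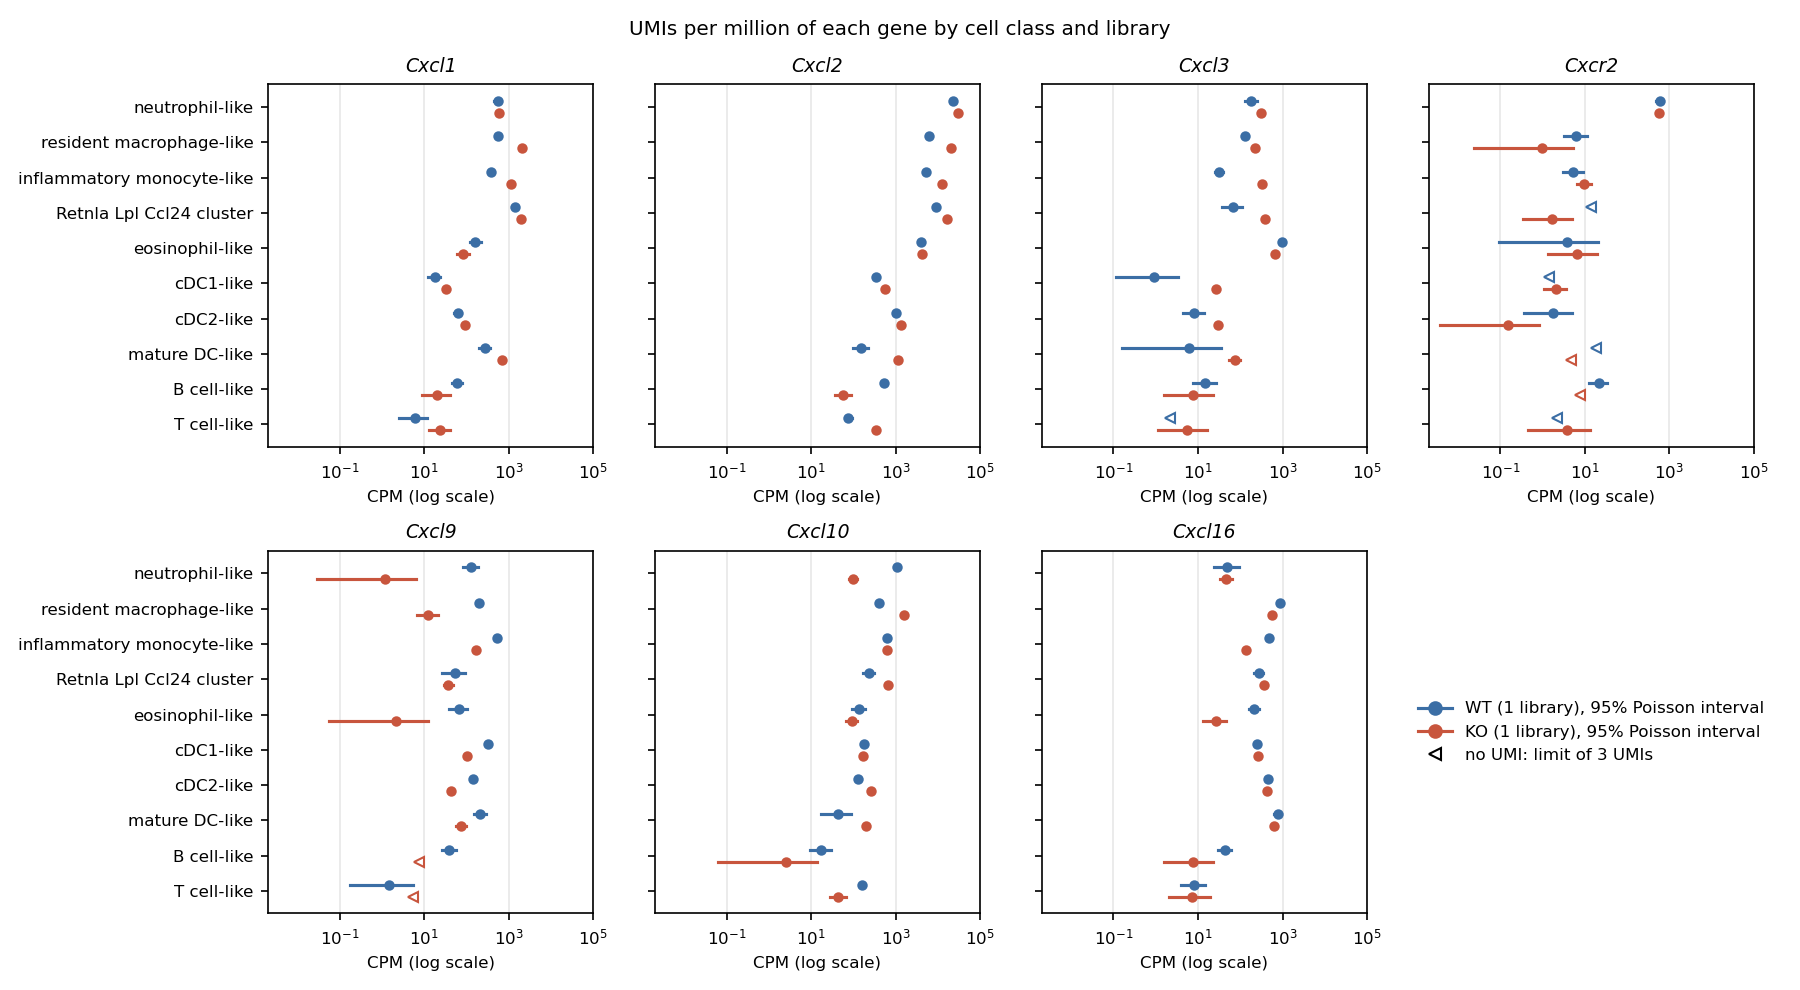
Level of each of the 7 genes in CPM on a log axis (horizontal) for 8 myeloid groups and for B and T cell-like cells (vertical), with 95% Poisson intervals and 1 library per genotype. Cxcr2 stood out in neutrophil-like cells at 592 and 579 CPM, Cxcl2 ran from 3954 to 29383 CPM in the upper 5 groups, and open triangles mark groups without a UMI at the level of 3 UMIs.

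Among the CXCR3 ligands, Cxcl9 was highest in inflammatory monocyte-like cells (517 CPM in WT against 170 CPM in KO), followed in WT by cDC1-like (319 CPM), mature DC-like (212 CPM, from 4 of 19 cells), fibroblast-like (207 CPM, from 9 of 80 cells), resident macrophage-like (198 CPM) and cDC2-like cells (142 CPM). The intervals of mature DC-like (147 to 297 CPM), fibroblast-like (166 to 254 CPM) and resident macrophage-like cells (178 to 219 CPM) overlapped. The KO values of these 5 classes were 104, 74.6, 0, 12.5 and 43.8 CPM, where the 0 stands for no UMI in 21 fibroblast-like cells, and KO epithelial-like cells had 117 CPM from 16 UMIs of a single cell. The transcript was unevenly spread, since the 5 cells with the most Cxcl9 UMIs held 38.4% of the UMIs of WT and 82.3% of those of KO inflammatory monocyte-like cells, and 73.4% and 73.1% in cDC1-like cells.

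Cxcl10 had 631 CPM in both WT and KO inflammatory monocyte-like cells, and in resident macrophage-like cells it had 399 CPM in WT against 1559 CPM in KO. The Retnla Lpl Ccl24 cluster had 235 and 677 CPM, cDC1-like cells 182 and 172 CPM, and cDC2-like cells 130 and 260 CPM. In neutrophil-like cells the level was 1065 CPM in WT against 96.5 CPM in KO, but 5 of the 79 WT cells held 80.8% of those UMIs. Lymphoid cells held Cxcl10 UMIs too. Plasma cell-like cells had 179 CPM in WT, or 15.3% of all Cxcl10 UMIs of that library, and 2236 CPM in KO, where 320 UMIs came from 3 of 5 cells. ILC-like cells had 1032 CPM in WT, from 99 UMIs in 17 cells with 93.9% of them in 5 cells, against 117 CPM in KO, and T cell-like cells had 163 CPM in WT against 44.4 CPM in KO.

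Cxcl16 was spread over macrophages, monocytes and dendritic cells. Its WT levels were 859 CPM in resident macrophage-like, 762 CPM in mature DC-like, 476 CPM in inflammatory monocyte-like, 452 CPM in cDC2-like and 251 CPM in cDC1-like cells. The intervals of the first and second of these overlapped (817 to 901 and 633 to 910 CPM), as did those of inflammatory monocyte-like and cDC2-like cells (451 to 502 and 421 to 485 CPM). In KO the values were 561, 629, 135, 428 and 256 CPM in the same order. Neutrophil-like cells had 49.8 and 46.5 CPM, so the gene was low where Cxcl2 was highest.

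**Figure D2:**
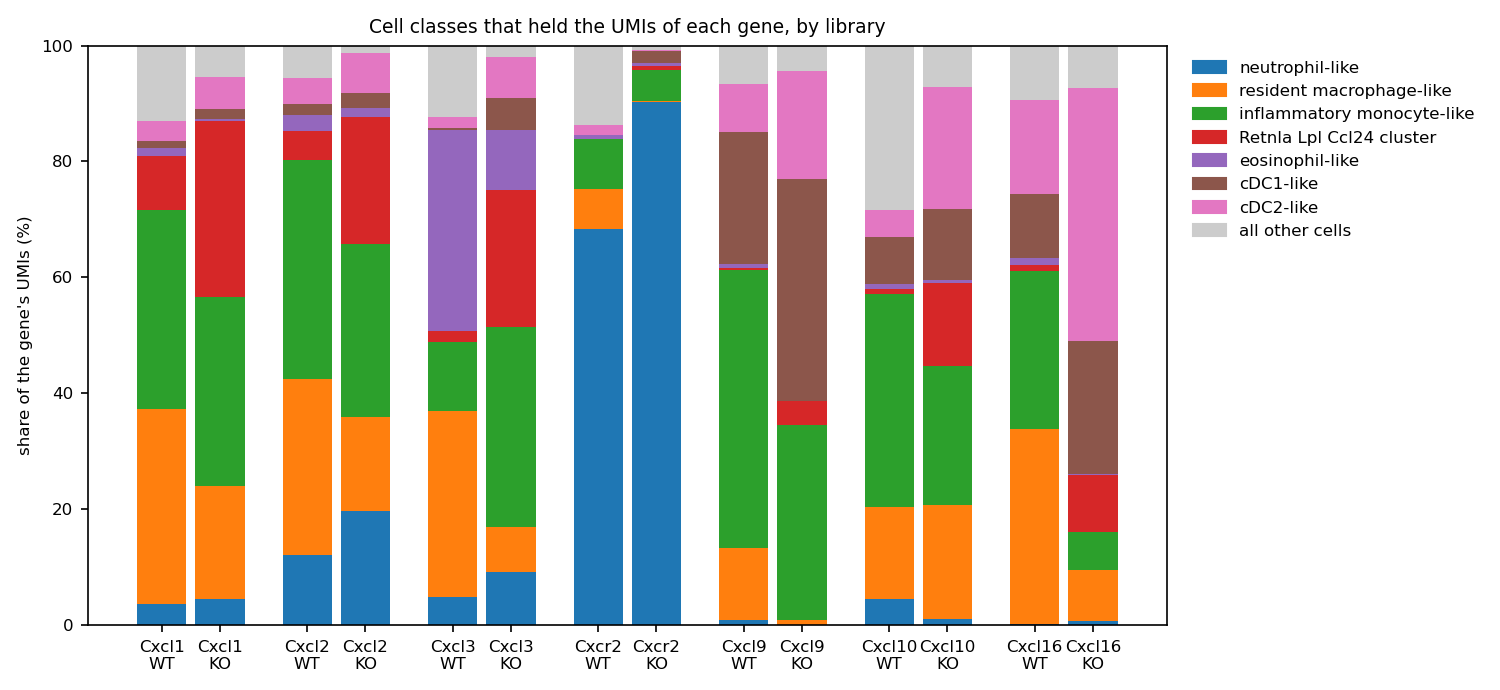
Share of the UMIs of each gene (vertical, percent, stacked to 100) that each cell group held in the WT and the KO library (bars). Neutrophil-like cells held 68.4% and 90.2% of Cxcr2, eosinophil-like cells held 34.8% and 10.4% of Cxcl3, and cDC2-like cells held 16.1% and 43.7% of Cxcl16.

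The share of cells with a UMI depends on depth, so each cell was also thinned to 1000 UMIs, and B and T cell-like cells served as the background. Whether this background is free RNA alone was not tested. Single cells reached 9042 CPM of Cxcl2 in WT B cell-like and 13810 CPM in KO T cell-like cells. Thinning left out 26 of 312 WT and 8 of 130 KO resident macrophage-like cells and 142 of 224 WT and 210 of 409 KO eosinophil-like cells. Cxcl2 was detected in 98.7% of WT and 99.2% of KO neutrophil-like cells, 79.0% and 87.7% of resident macrophage-like cells and 75% and 87.7% of inflammatory monocyte-like cells. The background was 12.95% and 5.95% in B cell-like and 5.33% and 9.20% in T cell-like cells, at median depths of 2999.5 and 4394 and of 4956 and 5807.5 UMIs, against 4920 and 6867 in resident macrophage-like cells. Without thinning, the Cxcl2 shares were 86.5% and 89.2% in resident macrophage-like, 23.0% and 23.5% in B cell-like and 22.1% and 37.5% in T cell-like cells.

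Cxcl1 was detected in 21.3% of WT and 51.6% of KO resident macrophage-like cells and in 13.3% and 27.4% of inflammatory monocyte-like cells after thinning. The highest background of Cxcl1 was 5.75%, in KO T cell-like cells. Shares of 1.03% and 4.09% in cDC1-like and 4.64% and 5.10% in cDC2-like cells were at or below that level. The cDC2-like cluster led by Mgl2 and Ccl17 stood above it in KO, with Cxcl1 in 10.8% of 130 cells (interval 6.01% to 17.4%) at 225 CPM. Cxcl3 shares at this depth were also at or below the background in cDC1-like cells (0 of 195 in WT, which allows up to 1.87%, and 0.877% in KO) and cDC2-like cells (0 of 151, up to 2.41%, and 3.02%), against 3.57% in KO B cell-like cells. With thinning to 2000 UMIs, Cxcl3 was in 0 of 84 KO B cell-like (up to 4.30%) and 0 of 86 KO T cell-like cells (up to 4.20%). The KO shares were then higher in cDC1-like (2.67%, interval 1.23% to 5.01%) and cDC2-like cells (4.66%, 2.87% to 7.11%), with overlapping intervals. The WT shares of 0.538% and 0.662% stayed below the 1.18% of WT B cell-like cells.

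Cxcl9 had almost no background, with 0.518% in WT B cell-like cells and 0 of 225 WT and 0 of 87 KO T cell-like cells, which allow up to 1.63% and 4.15%. It was detected in 9.79% of WT resident macrophage-like cells and in 1 of 122 KO cells (0.820%, interval 0.0208% to 4.48%), in 14.2% and 2.57% of inflammatory monocyte-like cells and in 7.95% and 2.09% of cDC2-like cells. Cxcl10 was detected in 19.6% of WT and 50.8% of KO resident macrophage-like cells and in 19.3% and 20.9% of inflammatory monocyte-like cells. It was found in 10.7% of WT and 5.75% of KO T cell-like cells, but in 2.59% of WT and 0 of 84 KO B cell-like cells, which allow up to 4.30%. The cDC1-like shares of 10.3% and 5.85% were about at the T cell-like and above the B cell-like share, and in KO the cDC1-like level of 172 CPM was above that of T cell-like cells. With thinning to 2000 UMIs the KO shares were 13.4% in cDC1-like (interval 9.91% to 17.5%) and 5.81% in T cell-like cells (1.91% to 13.1%). In cDC2-like cells only the KO share, 16.2% against 7.95% in WT, was above the T cell-like share. Cxcl16 was detected in 57.3% and 36.1% of resident macrophage-like and 30.5% and 12.3% of inflammatory monocyte-like cells, with at most 4.15% in B and T cell-like cells.

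**Figure D3:**
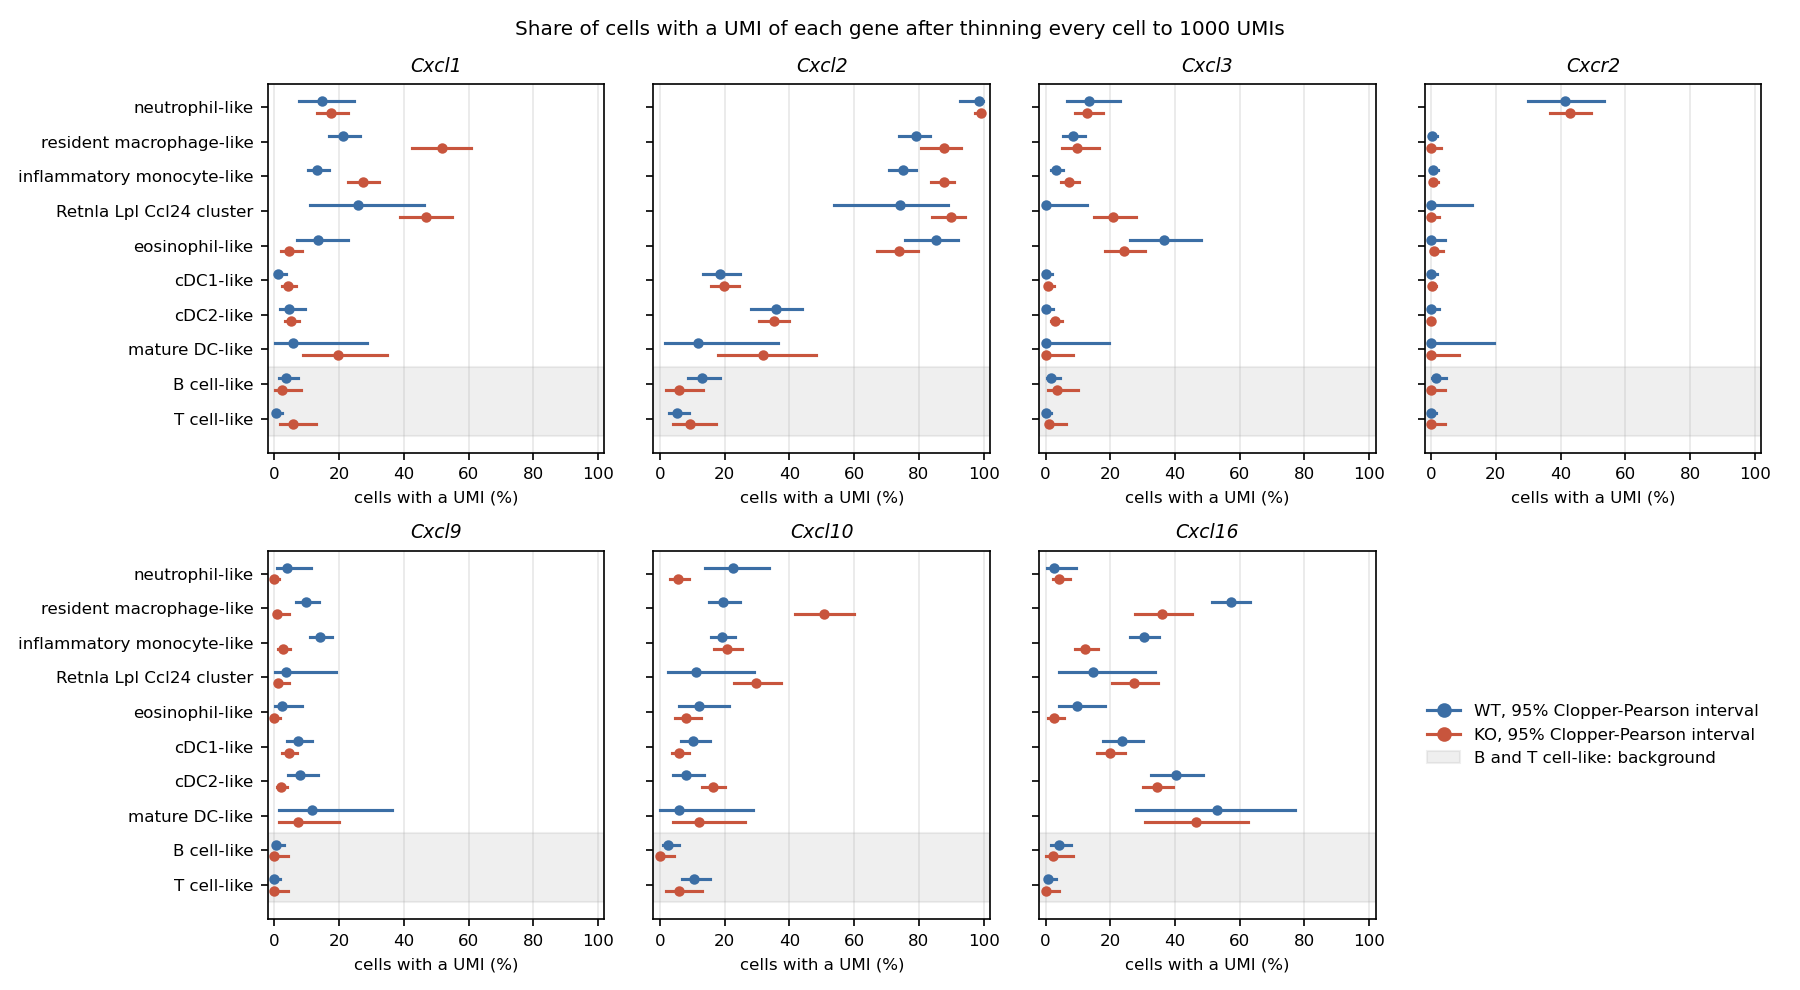
Share of cells with at least 1 UMI of each gene (horizontal, percent) after every cell was thinned to 1000 UMIs, by cell group (vertical) and library, with 95% Clopper-Pearson intervals. The shaded B and T cell-like groups give the background, which stayed at or below 12.95% for each gene, while Cxcl2 was found in 98.7% and 99.2% of neutrophil-like cells.

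The comparison of genotypes was made class by class, beginning with resident macrophage-like cells. Cxcl1 (log2 ratio of KO to WT 1.90, interval 1.80 to 2.01), Cxcl2 (1.71, 1.68 to 1.74) and Cxcl10 (1.96, 1.84 to 2.09) were higher in KO, Cxcl3 differed less (0.78, 0.51 to 1.05), Cxcl16 was lower (-0.61, -0.75 to -0.48), and Cxcl9 was lower in these cells as clustered (-3.98, -4.91 to -3.19). Of 6 members with at least 20 UMIs over both libraries, 3 were at least 2-fold higher in KO and 1 was at least 2-fold lower, counted with a prior of 1 CPM. Over all 8064 genes tested in the class, 3.66% were that much higher and 8.49% that much lower. The median per cell of Cxcl2 was 3000 CPM in WT against 15762 CPM in KO. For Cxcl10 the median cell had 0 CPM in WT against 694 CPM in KO.

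The Cxcl9 value in resident macrophage-like cells depended on the clustering. It came to -0.064 with 4000 variable genes, -0.025 with the CXC genes allowed to shape the clusters and -0.18 with each library clustered alone, while the levels of Cxcl1, Cxcl2 and Cxcl10 stayed higher in KO under the same 3 settings. The class then held other cells, 858 WT and 201 KO, 777 and 163, and 297 and 332 in that order. The cause was not tested. A pool of resident macrophage-like, inflammatory monocyte-like and Retnla Lpl Ccl24 cells (777 WT and 653 KO cells), added after the data had been seen, was used beside the classes. It does not remove the unequal mix, since clusters within it held different parts of the libraries, and Cxcl9 did not fall in each of them, as described below. In this pool Cxcl9 was at 373 CPM in WT against 103 CPM in KO (-1.86, interval -1.99 to -1.73), and its log2 ratio lay between -3.21 and -1.51 in the 11 alternatives. Cxcl1 (1.64), Cxcl2 (1.36), Cxcl3 (2.20) and Cxcl10 (0.62) were higher and Cxcl16 (-1.14) was lower in the KO pool, and each kept its direction in all 11.

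In inflammatory monocyte-like cells taken as a class, the attractants were higher in KO, with log2 ratios of 1.58 for Cxcl1 (interval 1.48 to 1.68), 1.23 for Cxcl2 (1.20 to 1.26) and 3.32 for Cxcl3 (3.004 to 3.64). Cxcl9 (-1.61, -1.75 to -1.46) and Cxcl16 (-1.82, -1.98 to -1.66) were lower, and Cxcl10 was at 0.00 (-0.09 to 0.09). Cxcl3, Cxcl9 and Cxcl16 did not keep these directions in each cluster of the class. All 7 members reached 20 UMIs, and 3 were at least 2-fold higher and 2 at least 2-fold lower, against 2.86% and 7.4% of 8893 genes. The Cxcl3 value rested on few cells, as 5 of 359 KO cells held 61.4% of its UMIs.

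This class was made of 3 clusters that the libraries did not share equally. A cluster led by Ly6i held 392 of the WT and 56 of the KO cells, a cluster led by Chil3 held 29 and 266, and a cluster with Rsad2 among its leading genes held 17 and 37. Within the Ly6i cluster, Cxcl2 was at 5105 CPM in WT against 5631 CPM in KO (0.14, interval 0.08 to 0.20) and Cxcl9 was higher in KO, 523 against 989 CPM (0.92, 0.76 to 1.07). Measures per cell ran the other way for Cxcl2, with a median of 17 UMIs in WT against 10 in KO. Its thinned shares were 76.4% and 67.9%, and 5 of 56 KO cells held 52.8% of its UMIs. Within the Chil3 cluster, Cxcl2 was at 8118 and 11964 CPM (0.56, 0.49 to 0.63) and Cxcl9 at 180 and 27.3 CPM (-2.72, -3.34 to -2.09). The summed Cxcl1 level was higher in KO in both, by less than in the class (0.60, 0.40 to 0.80, and 0.61, 0.37 to 0.87). It rested on few cells, since 5 of 56 KO cells held 92.3% of the Cxcl1 UMIs in the Ly6i cluster. In the Chil3 cluster 5 of 29 WT cells held 97.1%. The share of cells with Cxcl1 in the Ly6i cluster was 28.1% in WT and 23.2% in KO, and 13.3% and 16.1% after thinning. Cxcl3 was lower in KO in the Ly6i cluster (78 and 3 UMIs, -2.29, -4.60 to -0.69) and had an interval that includes 0 in the Chil3 cluster (-0.60 to 1.22), while 823 of the 1003 KO UMIs of the class lay in the Rsad2 cluster. Cxcl16 was lower in KO in the Ly6i cluster (503 against 302 CPM, -0.73, -0.995 to -0.48) and the Rsad2 cluster (562 against 217 CPM, -1.37, -1.91 to -0.84), but not in the Chil3 cluster (72.1 against 94.2 CPM, 0.39, -0.39 to 1.28). The KO value of Cxcl9 in the Ly6i cluster came from 8 of 56 cells with a UMI, 5 of which held 95.01% of the UMIs, and the share of cells with Cxcl9 after thinning was 14.9% in WT and 10.7% in KO. The summed Cxcl10 level was 507 CPM in WT against 770 CPM in KO in the Ly6i cluster (0.60, interval 0.43 to 0.77), 577 against 280 CPM in the Chil3 cluster (-1.04, -1.33 to -0.74) and higher in KO in the Rsad2 cluster (0.26, 0.09 to 0.43). The former pair rested on few cells, since 5 KO cells held 88.3% of the UMIs in the Ly6i cluster and 5 of 29 WT cells held 94.6% in the Chil3 cluster. The thinned shares of cells with Cxcl10 were close, 17.2% and 16.1% in the Ly6i and 13.8% and 15.6% in the Chil3 cluster.

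Cxcl9 was among the 10 leading genes of the Ly6i cluster and Cxcl3 among those of the Rsad2 cluster, although neither shaped the clusters. The Rsad2 cluster held the largest differences in Cxcl1, Cxcl2, Cxcl3 and Cxcl9 among these clusters. Cxcl2 was at 2849 CPM in WT against 27346 CPM in KO, Cxcl1 at 103 and 2539 CPM, and Cxcl3 had no UMI in 17 WT cells, a limit of 23.7 CPM, and 3306 CPM in 37 KO cells. These values rested on few cells, since 5 cells held 93.5% of the Cxcl1, 74.8% of the Cxcl3 and 49.96% of the Cxcl2 UMIs in KO and 94.4% of the Cxcl2 UMIs in WT. Cxcl10 was high in both, 3158 and 3776 CPM, and was found in 88.2% and 91.9% of the cells. Cxcl9 was at 918 and 20.1 CPM. Cxcl10 and Cxcl9 thus differed in direction within this cluster, where the genes Rsad2, Ifit3, Ifit2 and Ifit1, known interferon targets, were among the leading 10.

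**Figure D4:**
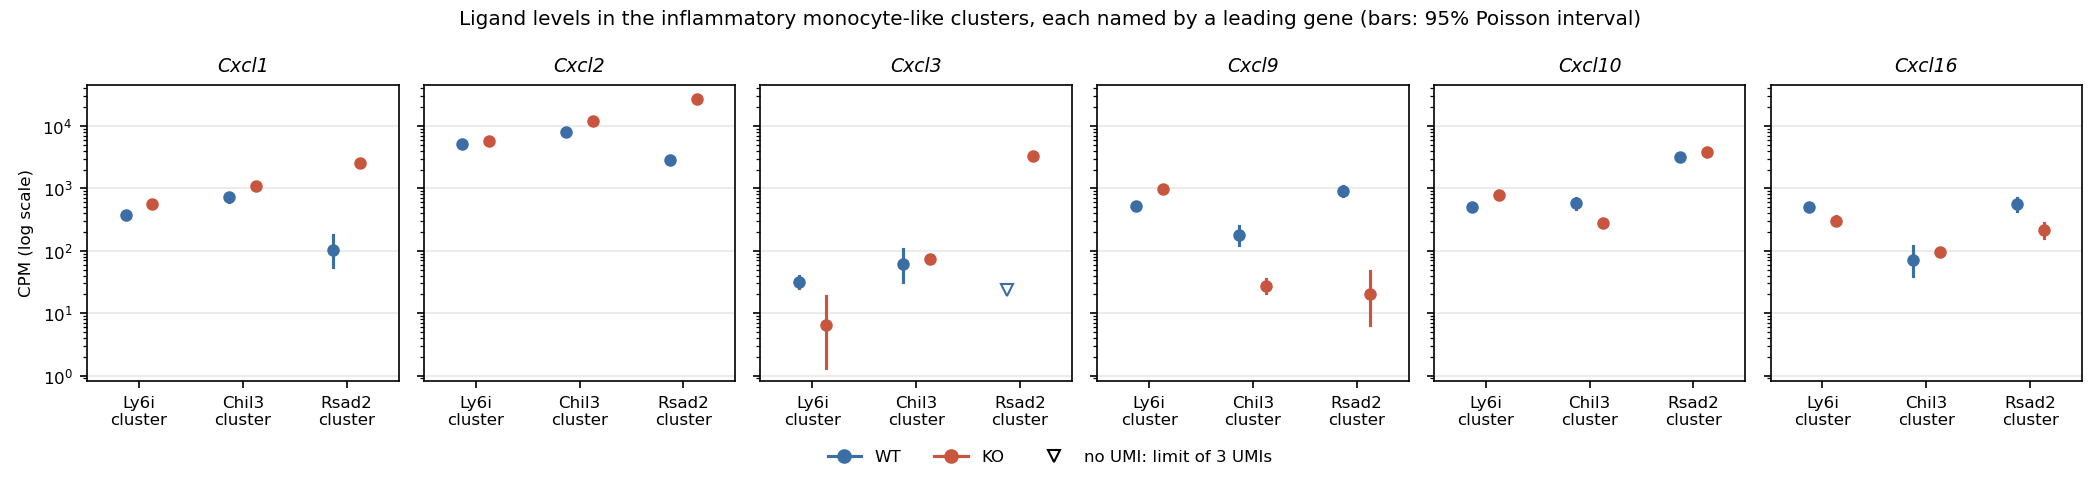
CPM on a log axis (vertical) of 6 ligands in the 3 inflammatory monocyte-like clusters, named by a leading gene (horizontal), with 95% Poisson intervals and 1 library per genotype. Cxcl2 was 2849 CPM in WT against 27346 CPM in KO in the Rsad2 cluster but 5105 and 5631 CPM in the Ly6i cluster, and the summed Cxcl9 level was higher in KO only in the latter, where 5 KO cells held 95.01% of its UMIs.

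The other myeloid groups differed from the macrophages in how far their ligands moved. In the Retnla Lpl Ccl24 cluster Cxcl2 (log2 ratio 0.83), Cxcl1 (0.46), Cxcl3 (2.54) and Cxcl10 (1.53) were higher in KO, as was Cxcl16 (0.44, 0.05 to 0.86), which was lower in the classes above, and Cxcl9 had an interval that includes 0 (-1.44 to 0.57). These ratios rested on 27 WT cells. For each gene 5 of them held most WT UMIs, with 76.7% for Cxcl1, 89.8% for Cxcl10, 80.7% for Cxcl16 and 100% for Cxcl3. Of 6 members tested in this cluster, 2 were at least 2-fold higher and 0 lower, against 10.3% and 9.43% of all genes. In neutrophil-like cells Cxcl2 was 0.35 higher (0.30 to 0.39), Cxcl3 was 0.75 higher (0.25 to 1.29) from 37 WT and 266 KO UMIs, and Cxcl1 had an interval that includes 0 (-0.23 to 0.37). Cxcl10 was lower (-3.46, -3.85 to -3.09), with the few cells named above behind the WT value. Cxcl9 had 25 UMIs in WT and 1 in KO neutrophil-like cells. Of 7 tested members, 0 were at least 2-fold higher and 2 lower, against 6.78% and 12.7% of all genes.

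In cDC1-like cells Cxcl9 was lower in KO (-1.62, -1.78 to -1.46), Cxcl2 was higher (0.70, 0.58 to 0.82), and the intervals of Cxcl10 (-0.25 to 0.09) and Cxcl16 (-0.11 to 0.17) included 0. This class was made of 2 clusters of unequal shares. In the cluster led by Xcr1 and Clec9a (177 WT and 248 KO cells) Cxcl2 was slightly lower in KO (-0.26, -0.41 to -0.12), and in the cluster led by cell cycle genes such as Top2a (24 WT cells and the remaining KO cells of the class) it was higher (2.19, 1.89 to 2.51). Cxcl9 was lower in both (-1.21 and -1.59). Cxcl16 differed in direction, at -0.39 (-0.56 to -0.22) in the former and 1.08 (0.73 to 1.45) in the latter. Cxcl10 had an interval that includes 0 in the former (-0.11 to 0.25) and was higher in the latter (0.71, 0.16 to 1.31). In cDC2-like cells Cxcl9 was lower (-1.70, -1.95 to -1.45) and Cxcl10 higher (1.00, 0.80 to 1.20). A cDC2-like cluster led by Mgl2 and Ccl17 held 3 WT and 131 KO cells with 643 CPM of Cxcl10 in KO, and in the other cDC2-like cluster Cxcl10 was at 117 CPM in WT against 99.0 CPM in KO (-0.24, -0.48 to 0.01). In each subset 1 of 6 tested members was at least 2-fold higher and 1 lower, against 2.72% and 2.54% of genes in cDC1-like and 4.82% and 7.79% in cDC2-like cells, and the higher member was Cxcl3 in both. The share of KO cells with Cxcl3 was at or below the background at the lower thinning depth. At the higher depth it was above the background, with overlapping intervals, as given above. In cDC1-like cells 85.6% of the 160 KO UMIs of Cxcl3 lay in 5 cells. Eosinophil-like cells had close levels of Cxcl2 (0.11, 0.00 to 0.22) and lower Cxcl3 (-0.57, -0.81 to -0.32) and Cxcl16 (-3.04, -4.07 to -2.13) in KO, and 0 of 5 tested members were at least 2-fold higher and 1 lower, against 7.94% and 9.14%.

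The lymphoid background moved as well. Cxcl2 was at 535 CPM in WT against 58.4 CPM in KO in B cell-like cells, where 5 of 200 WT cells held 59.4% of the UMIs, and at 75.8 and 335 CPM in T cell-like cells, where 5 of 88 KO cells held 82.9% of the UMIs. Of 4 members tested in B cell-like cells, 0 were at least 2-fold higher and 4 lower, against 1.83% and 10.6% of genes, and of 3 tested in T cell-like cells 2 were higher and 1 lower, against 3.77% and 16.5%. The part of this background in the ratios of the myeloid classes was not tested.

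**Figure D5:**
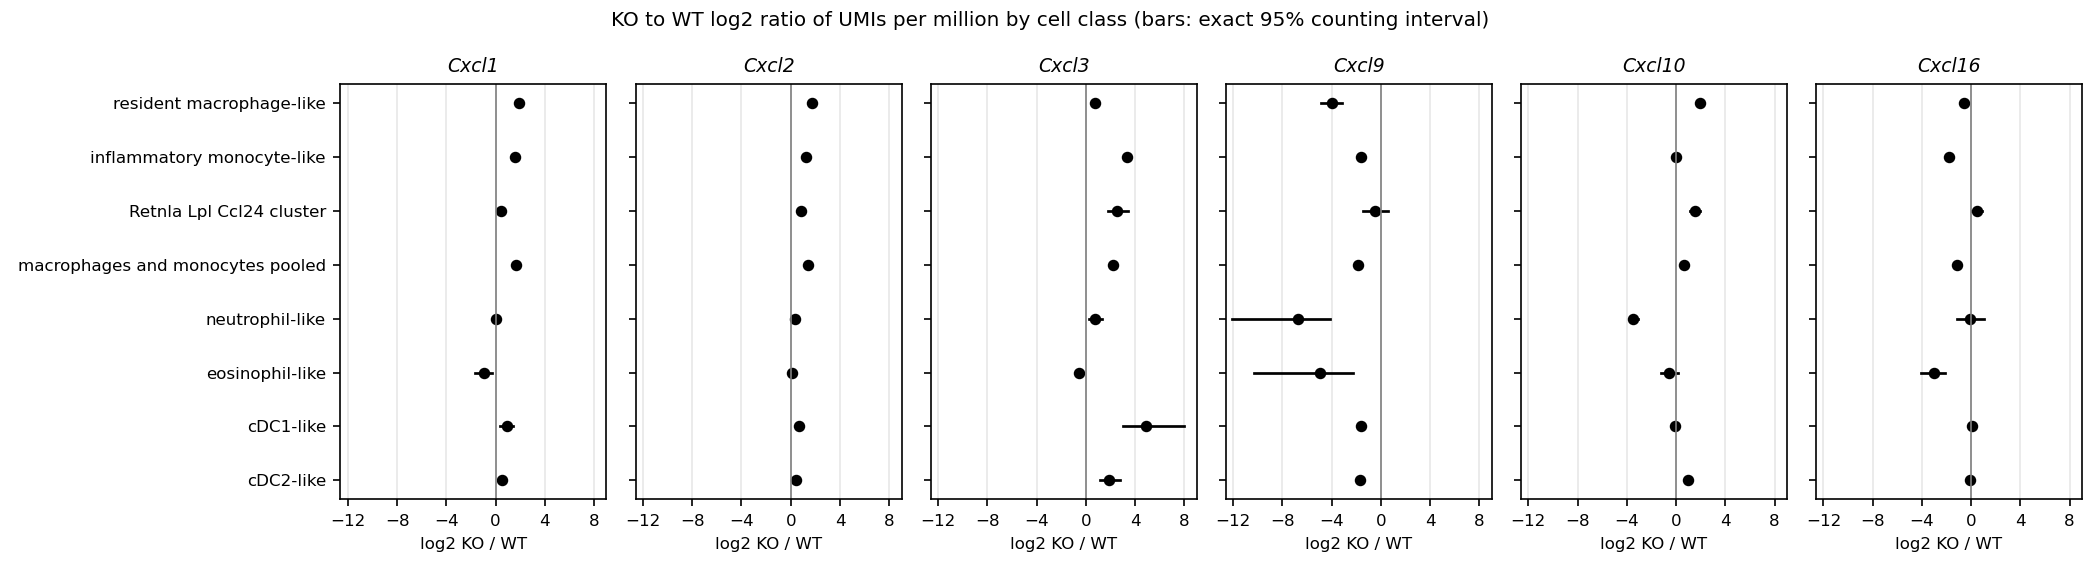
KO to WT log2 ratio of CPM (horizontal) for 6 ligands in 7 cell groups and in the pool of macrophages and monocytes (vertical), with exact 95% counting intervals as bars. In the pool Cxcl1, Cxcl2 and Cxcl3 lay at 1.64, 1.36 and 2.20, Cxcl10 at 0.62 and Cxcl9 at -1.86.

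The neutrophil attractants were then set against Cxcl9 and Cxcl10 directly, as the ratio of their summed UMIs within a class, which does not depend on the total depth. Cxcl2 made up most of the attractant UMIs, 20826 of 23181 in KO resident macrophage-like and 38385 of 42952 in KO inflammatory monocyte-like cells. The balance therefore mainly follows Cxcl2 and says little about Cxcl1 and Cxcl3. In resident macrophage-like cells there were 11.4 attractant UMIs per UMI of Cxcl9 and Cxcl10 in WT and 14.2 in KO, a log2 odds ratio of 0.32 (interval 0.20 to 0.43). The CXCR3 ligands differed from each other in this balance. The balance stayed positive in all 12 alternatives, between 0.20 and 1.18. Against Cxcl9 alone the value was 5.70 (4.91 to 6.62), which rested on 13 KO Cxcl9 UMIs in this clustering and goes with a Cxcl9 ratio that came close to 0 under the 3 clusterings named above, and against Cxcl10 alone it was -0.25 (-0.38 to -0.12), since Cxcl10 differed between the libraries by slightly more than the summed attractants.

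In inflammatory monocyte-like cells the balance was 4.90 in WT and 17.1 in KO (1.80, interval 1.72 to 1.89). In the pool of macrophages and monocytes it was 7.00 and 18.2 (1.38, 1.32 to 1.44), with 3.26 against Cxcl9 and 0.78 against Cxcl10. It was 1.63 in cDC1-like cells but 0.46 (0.28 to 0.64) in their Xcr1 Clec9a cluster and 1.99 (1.46 to 2.51) in their cycling cluster, 0.30 in cDC2-like cells but 0.81 (0.61 to 1.00) in their larger cluster and -0.49 (-1.09 to 0.06) in the cluster of 3 WT and 131 KO cells, 3.95 in neutrophil-like cells and -0.51 (-0.91 to -0.13) in the Retnla Lpl Ccl24 cluster. The neutrophil-like value rests on WT Cxcl10 UMIs of which few cells held most, as given above. Within the Ly6i cluster of monocytes alone the balance was -0.60 (-0.73 to -0.47), opposite to the class. The 5 KO cells named above for each gene were behind most of the Cxcl9 and Cxcl10 UMIs of this cluster in KO. The balance had the direction of the class in the Chil3 cluster (1.86, 1.59 to 2.13) and the Rsad2 cluster (3.59, 3.37 to 3.81). Over all cells the balance was 5.41 in WT and 14.5 in KO.

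Single cells were examined for ligands found together, after thinning to 1000 UMIs. Cells with a Cxcl1 UMI had more Cxcl2 in each library. In WT resident macrophage-like cells the median was 6 Cxcl2 UMIs in 61 cells with Cxcl1 and 3 in the others, and in KO it was 19 in 63 cells with Cxcl1 and 7 in the others. Cells with Cxcl10 had a median of 3 Cxcl2 UMIs in WT, as had cells without, and 20 against 7.5 in KO. In WT inflammatory monocyte-like cells, Cxcl9 was found in 33.3% of 84 cells with Cxcl10 and 9.66% of cells without, and in KO in 8.22% and 1.08%. In WT resident macrophage-like cells the shares were close, 10.7% and 9.57%, and the KO cells, of which 1 held Cxcl9, allow no comparison. In cDC2-like cells the shares were 58.3% and 3.60% in WT but 1.43% and 2.22% in KO. The cells with Cxcl10 were few in WT, 11 in the larger cDC2-like cluster and 1 in the cluster led by Mgl2 and Ccl17. In KO they were 26 and 44, so the libraries were compared on unlike mixes of these clusters. All these medians and shares are descriptions of cells that share 1 library and 1 total per cell.

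Across 20 profiles of 10 classes in both libraries, the genes with the most similar log levels were listed for each member among 12405 genes. Cxcl1 was most like Mitf (Pearson r = 0.95), Cxcl2 (0.92) and Fnip2 (0.91). Cxcl2 was most like Lrrc25 (0.95), Lst1 (0.95) and Hmox1 (0.95), and Cxcl3 was most like Cd300lb (0.91), Cd300ld (0.90) and Mafg (0.90). Cxcr2 had the closest companions, Chil1 (0.99), Gm5483 (0.98) and Fpr1 (0.98). For Cxcl9 they included Ifi205 and Erlin2 (each 0.84), and they were for Cxcl10 Isg15 (0.83), Trafd1 (0.83) and Prdm1 (0.81), and for Cxcl16 Aif1 (0.96), Psap (0.95) and Dock4 (0.94). Among the members, Cxcl2 and Cxcl3 had r = 0.84, Cxcl9 and Cxcl16 0.73, and Cxcl3 and Cxcl9 0.16. Cxcl10 had r = 0.69 with Cxcl1, 0.66 with Cxcl2, 0.44 with Cxcl3 and 0.56 with Cxcl9. Profiles of a class share cell identity and those of a library share depth, so these values are descriptions.

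Genes that induce or regulate the attractants were read from a list, which also holds Nfkbia, an inhibitor of NF-kappaB, and Zfp36, an mRNA decay factor. Of its 14 genes, 12 reached 20 UMIs in resident macrophage-like cells, 2 were at least 2-fold higher in KO and 0 lower, against 3.66% and 8.49% of all genes, and the median log2 ratio was -0.18 against -0.21 over all genes. Both were cytokine genes, Tnf (293 CPM in WT against 1490 CPM in KO) and Il1a (56.5 and 333 CPM), while Il1b, the other interleukin 1 gene, was lower (2639 and 1824 CPM). In inflammatory monocyte-like cells 1 of 12 was at least 2-fold higher, Il1a at 67.8 and 174 CPM, against 2.86% of all genes, and the list median was 0.04 against -0.18.

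Among classes of at least 20 cells per library, Ifng, which encodes interferon gamma, was highest in NK cell-like cells, 438 CPM in WT against 1219 CPM in KO.

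Of 9 other CXC ligands, 8 were among the features, 2 reached 20 UMIs in resident macrophage-like cells and both were at least 2-fold higher in KO, Pf4 (160 and 965 CPM) and Cxcl14 (5.23 and 13.5 CPM), where 3.66% of all genes were. Cxcl12 was highest in fibroblast-like cells among classes of at least 20 cells per library, with 1440 and 1797 CPM. Of 9 CXC and atypical receptors, Cxcr4 was the 1 tested in resident macrophage-like cells and was at least 2-fold lower in KO (502 and 178 CPM), as were 8.49% of all genes. Among the same classes, the receptors Cxcr3 (34.6 and 27.7 CPM) and Cxcr6 (81.6 and 57.3 CPM) were highest in T cell-like cells. The ILC-like cluster, with 17 WT cells, was outside this ranking and had Cxcr6 among its 10 leading genes. Adam10 and Adam17, which encode proteases that can release CXCL16, were at 77.5 and 51.0 CPM and at 169 and 145 CPM in resident macrophage-like cells, and 0 of the 2 passed the 2-fold limit.

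Genes known to respond to tissue dissociation, a list of 14 added after the data had been seen, were counted in the same way. In resident macrophage-like cells 5 of 14 were at least 2-fold higher in KO and 0 lower, against 3.66% and 8.49% of all genes, with a median of 0.50 against -0.21, and the heat shock gene Hspa1a had 442 and 1422 CPM, Hspa1b 392 and 1473 CPM and the immediate early gene Egr1 566 and 1246 CPM. Of the same 14, inflammatory monocyte-like cells had 2 higher and 0 lower (median 0.02), and neutrophil-like cells 0 higher and 1 lower (median -0.21). Their part in the attractant levels was not tested.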

How the data were processed

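Single-cell RNA was measured in 1 WT and 1 KO library. The authors deposited raw UMI counts per gene and barcode, made with Cell Ranger (version 3.0.2 in the file headers). The submitters' processing notes name mm10 and Seurat 4. The study states far more WT cells than the 3185 barcodes used here. Following the study, cells with 200 to 6000 genes and at most 15% mitochondrial counts were kept. The study clustered with DESC. Here counts were normalised to 10000 per cell, 2000 variable genes were chosen without the CXC genes and their listed partners, and 30 principal components, 15 neighbours and the Leiden algorithm at resolution 1 gave 25 clusters in Python 3.11.15 (leidenalg 0.10.2, scanpy 1.11.5 and scikit-learn 1.9.0).

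Each cluster was named after the class that had most of its markers raised, as a share of the list (at least 3 markers, each 2-fold over other cells with a prior of 10 CPM and in 10% of cells). Clusters with under 3 raised markers of any class stayed without a name. So did clusters whose top 10 genes held more markers of another class, the reason for the Retnla Lpl Ccl24 cluster. The same rule held for clusters over 3 times shallower than their library with no own marker in the top 10. There were 4 clusters without a name in all, with 10.2% of WT and 9.90% of KO cells. The tie rule that named the eosinophil-like cluster was chosen once clusters had been inspected. The members, lists and markers were chosen with earlier results of these data known.

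Counts were summed per class and library, with exact Poisson, Clopper-Pearson and conditional binomial 95% intervals (scipy 1.17.1). UMIs lower the error of amplification but not that between animals. Genes with at least 20 UMIs in a class over both libraries were compared at a 2-fold limit with a prior of 1 CPM. The zero limit is 3 UMIs. Beside the members, the text names the 3 genes with the highest Pearson correlation over classes of at least 20 cells per library (at least 50 UMIs in all, prior of 10 CPM) and genes of the lists. Some genes that these rules name are not reported here. Doublets were not removed, and an alternative left out high Scrublet scores. The statistics were tested on simulated data. Coordinates are from GENCODE M21 and promoters from RefSeq. Alternatives are given in the closing section.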

Additional observations from a re-analysis of the deposited data

Results flagged for a closer look

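The 4 values below are differences between the KO to WT log2 ratios of 2 classes that moved in opposite directions, each class with 1 library per genotype. None of these differences was tested. Cxcl1 was higher in KO in resident macrophage-like and lower in B cell-like cells, a difference of 3.47. The B cell-like value rests on 48 WT UMIs, 83.3% of them in 5 cells, and 8 KO UMIs, and the share of B cell-like cells with a UMI, 6.50% in WT and 9.41% in KO, runs the other way. Cxcl2 was higher in T cell-like and lower in B cell-like cells, a difference of 5.34, with levels of 75.8 and 335 CPM in WT and KO T cell-like cells and 535 and 58.4 CPM in B cell-like cells, whose shares with a UMI were 23.0% and 23.5%. Cxcl3 was higher in cDC1-like and lower in eosinophil-like cells, a difference of 5.45, where the cDC1-like value rests on 2 WT and 160 KO UMIs and 85.6% of the latter lay in 5 cells. Cxcl10 was higher in resident macrophage-like and lower in neutrophil-like cells, a difference of 5.43. The neutrophil-like value rests on 214 WT and 83 KO UMIs, and few WT cells held most of the former, as given above. The median neutrophil-like cell had 0 CPM of Cxcl10 in both libraries.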

How the results depend on the processing

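Log2 ratios of KO to WT are given below, and the cause of each change was not tested. The class names did not cover the same cells in each setting. Resident macrophage-like WT cells were 312 in the main analysis and 691 with the stricter filter. They were 787 at resolution 0.5, 858 with 4000 variable genes and 777 with CXC genes allowed. WT monocyte-like cells were 438, 72, 73, 50 and 90 in that order. With each library clustered alone, KO resident cells were 332 against 130 in the main analysis. A kept direction is thus not that of 1 fixed set of cells. The direction held in all 12 alternatives in resident macrophage-like cells for Cxcl2 (1.44 to 1.82), Cxcl10 (1.36 to 2.50), Cxcl16 (-0.87 to -0.23) and the balance of attractants against Cxcl9 and Cxcl10 (0.20 to 1.18), but not the size. Cxcl9 ran from -6.74 to -0.025 and came close to no difference in some alternatives, so its direction is not counted as kept. Cxcr2 in neutrophil-like cells stayed between -0.05 and 0.23. With the stricter cell filter (500 to 5000 genes, at most 10% mitochondrial counts), resident macrophage-like cells had Cxcl2 1.81, Cxcl9 -1.08, Cxcl10 1.81, Cxcl16 -0.28 and a balance of 0.76, and inflammatory monocyte-like cells had Cxcl2 1.33 and a balance of 2.90. With every deposited barcode, Cxcl2 was 1.15 in monocyte-like and 1.82 in resident cells, and Cxcl10 2.12. At resolution 0.5, the resident values were Cxcl2 1.65, Cxcl9 -0.70, Cxcl10 1.36, Cxcl16 -0.34 and balance 0.94, and the monocyte-like ones Cxcl2 1.28 and balance 2.88. With 4000 variable genes they were 1.66, -0.064, 1.67, -0.29 and 0.56, and 1.15 and 2.77. With CXC genes allowed, Cxcl9 was -0.025, Cxcl16 -0.23 and the balance 0.47 in resident cells, and Cxcl2 1.36 and the balance 2.64 in monocyte-like cells. With each library clustered alone, which left 22.3% of WT and 19.6% of KO cells without a name, resident values were Cxcl2 1.44, Cxcl9 -0.18, Cxcl10 1.36, Cxcl16 -0.87 and balance 0.45, and monocyte-like ones 0.87 and 3.04. By highest marker score they were 1.67, -5.99, 1.41, -0.83 and 1.18, and 1.29 and 1.68. With cells weighted equally, Cxcl9 was -1.74, Cxcl16 -0.76 and the balance 0.20 in resident cells, and Cxcl2 1.26 and the balance 1.41 in monocyte-like cells. Without the 5 cells highest in the gene, resident values were Cxcl2 1.75, Cxcl9 -6.74 and Cxcl10 2.50, and monocyte-like ones Cxcl2 1.20 and balance 1.52.

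The following were added after the data had been seen. Without the top 3% of Scrublet scores, Cxcl2 was 1.20 in monocyte-like and 1.77 in resident cells. With the Retnla Lpl Ccl24 cluster counted as resident, values were Cxcl2 1.45, Cxcl9 -2.72, Cxcl10 1.39, Cxcl16 -0.86 and balance 0.60, and counted as monocyte-like, Cxcl2 was 1.31. In the monocyte-like cluster with most WT cells alone, Cxcl2 was 0.14, and the balance (-0.60), Cxcl3 (-2.29) and Cxcl9 (0.92) changed sign. In the cluster with most KO cells alone, Cxcl2 was 0.56 and Cxcl16 changed sign (0.39). With a minimum of 50 UMIs, 165 genes were 2-fold higher and 373 lower in resident cells (295 and 685 in the main analysis), 182 and 385 in monocyte-like cells (254 and 658), and 116 and 153 in neutrophil-like cells (265 and 496). With a prior of 10 CPM the numbers were 140 and 210, 100 and 171, and 160 and 318. No paired analysis was possible because each genotype had 1 library. The limits are 1 library per genotype, groups of under 30 cells, and transcripts such as Cxcl9 held by few cells.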
